A study of Mus musculus with 12 samples.

Results

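The genes described here are 10 genes known as products of mast cells, basophils and eosinophils: Prg2, Epx, Cpa3, Mcpt8, Prss34, Fcer1a, Ms4a2, Gata2, Kit and Hdc. They were chosen by name, and their array probes were found through the RefSeq accession of each probe. The 10 genes had 11 probes on 20 spots of each array, of 16358 genes that could be named on 41174 probes. Of the 10, 9 passed the filter on dim probes and Ms4a2 did not. The cells were mouse dendritic cells grown from bone marrow and exposed to nanoparticles of poly(γ-glutamic acid), or γ-PGA, a biodegradable polymer used as a carrier of antigens. Marrow of female mice aged 6 to 8 weeks was cultured with 20 ng/ml of GM-CSF in every group, and the loosely attached and floating cells were taken on day 7 as immature dendritic cells. The 4 groups were cells at 0 h and cells after 6, 12 and 24 h with 300 µg/ml of particles, with 3 samples each, described in the series as independent experiments. All exposed groups were compared with the cells at 0 h, and cells kept for 6, 12 or 24 h without particles were not analysed here, so time in culture and exposure cannot be told apart.

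Mast cells, basophils and eosinophils are granule-bearing cells that arise from marrow progenitors, and Gata2, a zinc finger transcription factor, takes part in their development. Mast cells and basophils carry the high-affinity receptor for IgE, store histamine made by the enzyme histidine decarboxylase (Hdc), and pack proteases into their granules. Eosinophil granules hold cationic proteins such as major basic protein (Prg2) and eosinophil peroxidase (Epx). GM-CSF, the cytokine used to grow these cultures, is also a growth and survival factor of eosinophils, and cultures grown with it are mixtures of cells. RNA was taken from whole cultures, so fewer cells of a type and less RNA per cell cannot be told apart.

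The series held values of each sample from the array scanner and a table of ratios that the authors deposited. Scanner signals are given here as multiples of the array's 75th percentile of non-control spots, and table values are linear ratios to the median of the 3 samples at 0 h. The sources differed, and not in the 24 h samples alone. On the scanner scale, over 18404 genes, the arrays at 24 h correlated with those at 0 h at a mean r of 0.991, and with those at 12 h at 0.910, against 0.995 among the arrays at 0 h. Across genes, the log2 changes against 0 h from both sources correlated at r = 0.729 at 6 h, 0.538 at 12 h and -0.07 at 24 h. The changes at 12 h against 6 h correlated at -0.135, and those at 24 h against 12 h at 0.378. Each result below is therefore given from both sources. A fit without the 24 h samples left every member's call at 6 and 12 h against 0 h as it was. Such a fit alters the estimate of the spread and not the log2 changes at 6 and 12 h, so it cannot tell which source is right. Genes were called changed where limma's adjusted p over all 18404 genes was under 0.05 and the change was at least 2-fold.

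The array signals of dendritic cell markers, as a check of the labelled cell type, were well above background on every array for 10 of 10 genes at 0 and 24 h and for 8 of 10 at 6 and 12 h. Of the mast cell markers with a probe, 5 of 10 were detected on every array at 0 and 6 h and 6 of 10 at 12 and 24 h. The undetected ones included Tpsb2, a tryptase, Mcpt4, a chymase, and Mrgprb2, a receptor of connective tissue mast cells. Of the basophil markers, 8 of 9 were detected on every array at each time. Eosinophil markers were detected for 7 of 8 genes at 0 and 6 h and 8 of 8 at 12 and 24 h. The cultures thus gave signal for basophil and eosinophil markers before any exposure, but detection was not particular to them. At 0 h, 10 of 10 neutrophil and precursor markers and 6 of 6 macrophage markers with a probe were also detected on every array. So were 5 of 7 erythroid and megakaryocyte markers and 4 of 7 T, B and NK cell markers. The mast cell and basophil lists share Cpa3, Fcer1a, Ms4a2, Gata2 and Hdc.

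Among the 9 measured genes, the scanner values gave 1 call at 6 h, 4 at 12 h and 0 at 24 h, all of them higher than 0 h. At 24 h, 4 of the 9 had an unadjusted p under 0.05 in limma, and Prg2 alone an adjusted one. Over all genes 26.1%, 30.6% and 0.837% were called at these times, with 10.2%, 13.7% and 0.696% called higher and 15.9%, 16.9% and 0.141% lower. The genes called were Hdc at 6 h and Hdc, Kit, Prg2 and Epx at 12 h. The median log2 change of the 9 genes was 0.09, 0.56 and 0.04 at 6, 12 and 24 h, against -0.06, -0.03 and 0.04 over all genes. The value table gave 1 higher (Hdc) and 3 lower (Gata2, Prg2 and Epx) at 6 h, 0 higher and the same 3 lower at 12 h, and 1 higher (Kit) and 8 lower at 24 h. Over all genes 25%, 27.8% and 26.3% were called in the table, with 13.2%, 15.7% and 13.3% higher and 11.8%, 12.1% and 13% lower. Its median log2 change of the 9 genes was -0.33, -0.66 and -1.41, against 0.14, 0.22 and 0.12 over all genes.

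**Figure D1:**
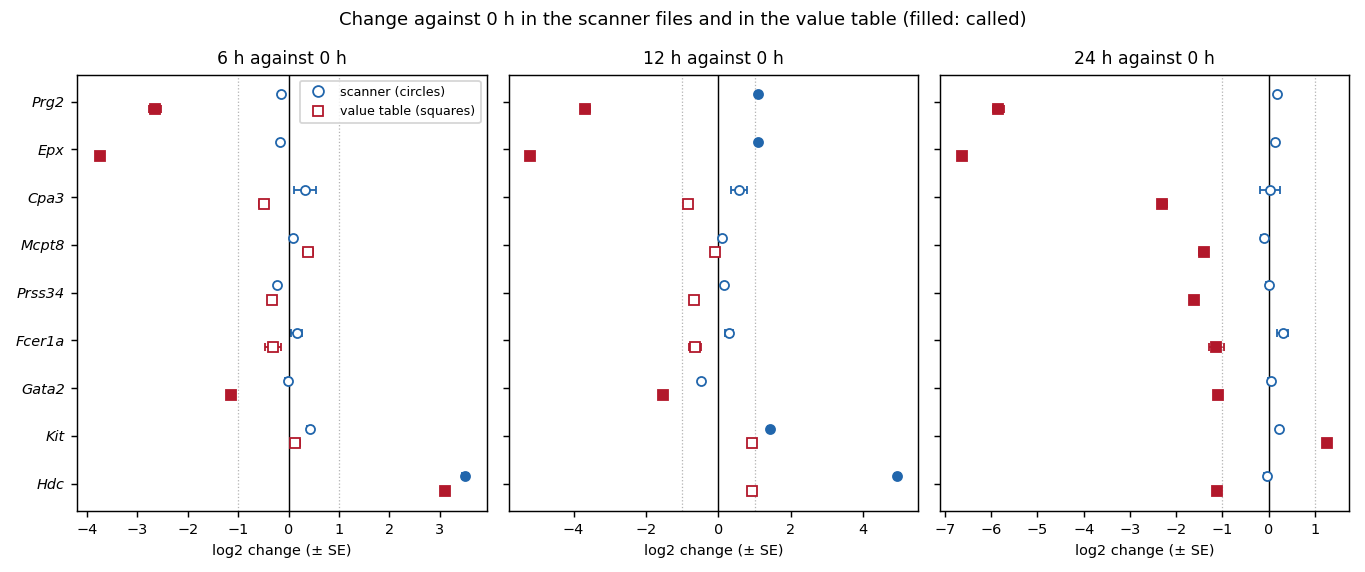
Log2 change of each measured gene against 0 h at 6, 12 and 24 h (horizontal axis, ± SE of the limma fit, 3 samples a group), with scanner values as circles and the value table as squares. Filled symbols passed the call and dotted lines mark 2-fold; at 24 h all 9 circles lie within 2-fold and all 9 squares beyond it.

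The eosinophil granule genes Prg2 and Epx were called in opposite directions by the sources at 12 h. Prg2 encodes the major basic protein, the most abundant protein of the eosinophil granule, and Epx the peroxidase stored beside it. On the scanner scale both rose slightly more than 2-fold at 12 h. In the value table both fell at every time, and Epx ended at the lowest ratio the table holds.

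Prg2 signals on the scanner scale were 30.2, 29.2 and 29.5 at 0 h, 27.1, 26.2 and 26.9 at 6 h, 62.8, 64.4 and 63.9 at 12 h, and 33.8, 33.7 and 33.7 at 24 h. The arrays at 12 h stood above all others, and no array at 6 or 24 h overlapped those at 0 h. The rise at 12 h was 2.15-fold (log2 1.10, SE 0.032, adjusted p = 4.46e-10). The log2 change was -0.15 at 6 h and 0.19 at 24 h, both under 2-fold. Table ratios of Prg2 were 1, 0.963 and 1.02 at 0 h, 0.152, 0.158 and 0.165 at 6 h, 0.0911, 0.0803 and 0.0651 at 12 h, and 0.0156, 0.0196 and 0.0169 at 24 h. Each later time lay wholly below the one before it. The fall was 6.28-fold at 6 h, 12.7-fold at 12 h and 57.5-fold at 24 h (log2 -5.85, SE 0.118, adjusted p = 4.66e-11).

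Epx signals followed the same course on the scanner scale, at 2.25, 2.19 and 2.20 at 0 h, 1.96, 2.00 and 1.95 at 6 h, 4.50, 4.77 and 4.89 at 12 h, and 2.45, 2.41 and 2.41 at 24 h. The groups did not overlap. The rise at 12 h was 2.13-fold (log2 1.09, SE 0.039, adjusted p = 1.86e-09). In the table its ratios were 0.934, 1 and 1.03 at 0 h, 0.0654, 0.0795 and 0.0772 at 6 h, 0.0285, 0.027 and 0.0254 at 12 h, and 0.01 in all 3 columns at 24 h. A ratio of 0.01 is the lowest in the table, so the fall at 24 h is a bound, at least 98.8-fold; at 6 and 12 h Epx fell 13.4-fold and 36.7-fold. The rises of Prg2 and Epx at 12 h were near the 2-fold threshold, and both dropped below it with quantile normalization (log2 0.50 and 0.97) and with the percentile taken over probes detected on all arrays (0.96 and 0.94).

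**Figure D2:**
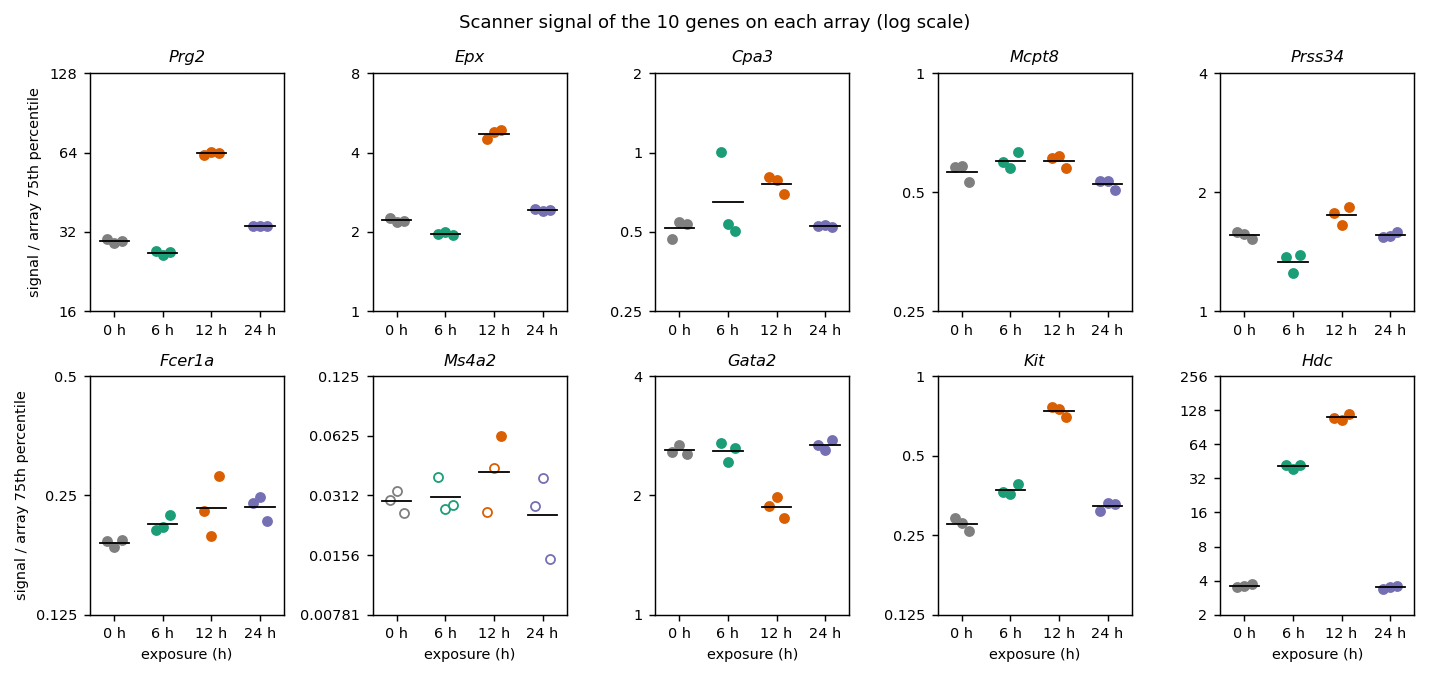
Scanner signal of each of the 10 genes on each array, as a multiple of the array's 75th percentile (vertical axis, log scale, different range in each panel), by hours of exposure. Points are samples, bars group means on the log scale (n = 3), and open points arrays where the probe was not well above background. Hdc, Prg2, Epx and Kit, the genes called at 12 h, stand highest there. The bars of Cpa3, Prss34, Mcpt8 (by a small margin) and the mostly undetected Ms4a2 are also highest at 12 h.

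Relative to 6 h, both granule genes rose on the scanner scale at 12 h, Prg2 2.38-fold and Epx 2.39-fold, and of the 9 measured genes Hdc was the other one called, where 6.99% of all genes were called (4.88% higher and 2.1% lower). In the table Prg2, Epx and Hdc were called lower at 12 h than at 6 h, where 5.8% of all genes were called (3.07% higher and 2.73% lower). The change of Prg2 there, -1.02 on the log2 scale, was close to the threshold. It was under 2-fold without 6 h replicate 3 (-0.99) and without 12 h replicate 3 (-0.89). It was also under 2-fold with quantile normalization of the table (-0.65) and with the slide as a block (-0.92). Epx was under 2-fold with quantile normalization too, at -0.98. Within slide 2, which held samples of both times, the scanner changes at 12 h against 6 h were 1.26 (log2) for Prg2 and 1.23 for Epx. With the slide as a block, the scanner changes against 0 h at 12 h were 1.13 for Prg2 and 1.05 for Epx, and both stayed called.

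Other eosinophil genes split by source as well. Of 11 further genes known from eosinophils, 9 were measured. The scanner values gave 0 rises and 2 falls at 6 h, 1 rise and 2 falls at 12 h, and 0 calls at 24 h (3 at an unadjusted p under 0.05 in limma), with median log2 changes of -0.64, 0.14 and 0.07. The table called 8 of the 9 lower at each of 6, 12 and 24 h, with medians of -1.51, -2.67 and -4.02. The 8 include Il5ra, which was not well above background on any scanner array at 0 or 6 h. Siglecf, a lectin of the eosinophil surface, fell in both sources at 6 h (4.05-fold on the scanner scale, 2.85-fold in the table) and at 12 h (3.05-fold and 6.98-fold). Alox15, a lipoxygenase, likewise fell in both, by 2.63-fold and 2.18-fold at 6 h and by 2.93-fold and 9.86-fold at 12 h. Il5ra, the receptor chain for interleukin-5, was not well above background on any array at 0 h but was on all 3 at 12 h, where it was at least 2.62-fold higher on the scanner scale (adjusted p = 8.43e-05). The table gives Il5ra a lower ratio at 12 h than at 0 h, but relative to a level that the scanner did not detect, so no fold is given.

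Further members of that list are named here after their values were seen. Prg3, a homologue of Prg2, had log2 changes in the table of -3.17, -4.28 and -6.60 at 6, 12 and 24 h, with 2 of 3 columns at the lowest ratio at 24 h, and 0.06 at 24 h on the scanner scale. Ear1, Ear6 and Ear10, eosinophil-associated ribonucleases, had table log2 changes of -4.23, -4.88 and -4.02 at 24 h and scanner log2 changes of 0.07, 0.01 and 0.17. These ribonucleases belong to a family of near-identical copies, so their probes may share signal. Il13ra1, a chain of the interleukin-13 receptor, was the 1 measured gene of the list that was not called in either source.

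**Figure D3:**
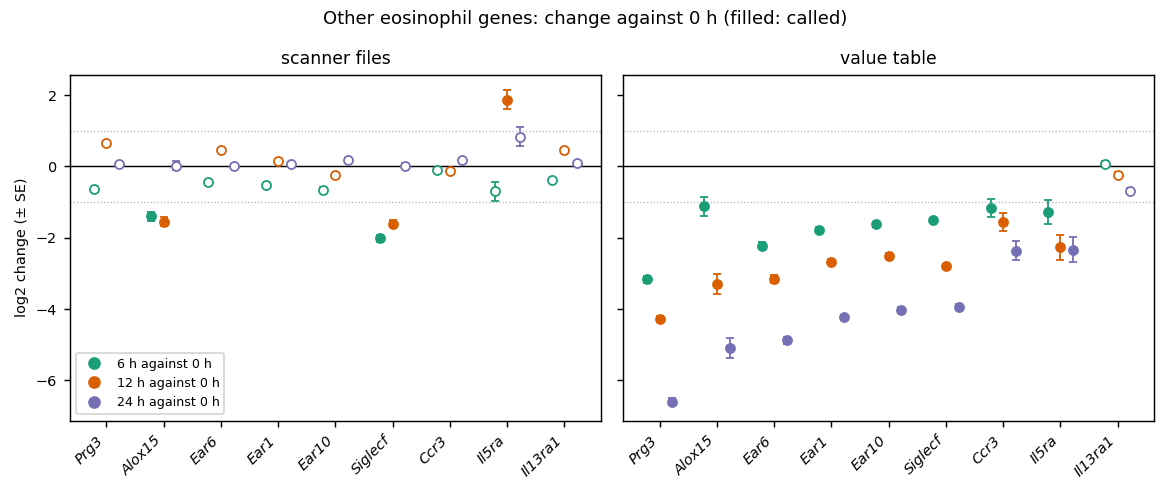
Log2 change against 0 h (vertical axis, ± SE, 3 samples a group) of the 9 other measured eosinophil genes at 6, 12 and 24 h, from the scanner files (left) and the value table (right), with filled points called. By table values 8 of 9 genes are called lower at every time, among them Il5ra, which the scanner did not detect at 0 h. The scanner points at 24 h lie near 0, except Il5ra at 0.83, and none is called.

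The granule proteases Cpa3, Mcpt8 and Prss34 were not called at any time on the scanner scale, and all 3 fell in the table at 24 h. Cpa3 is a carboxypeptidase of mast cell and basophil granules, Mcpt8 a serine protease used to mark mouse basophils, and Prss34 a second serine protease of mouse basophils. Fcer1a encodes the IgE-binding chain of the receptor carried by both cell types. As sequences of the granule proteases and of the IgE receptor, the windows around the start sites of these 4 genes are shown, from 250 bases before the start to 50 after it, as given by RefSeq for the build GRCm38.p6. Capitals mark GATAA, a core motif of GATA factors, or its reverse complement TTATC. The window of Cpa3 is chr3:20242132-20242431 (minus strand), that of Prss34 chr17:25298144-25298443 (plus), that of Fcer1a chr1:173227180-173227479 (minus) and that of Mcpt8 chr14:56085148-56085447 (minus).
Cpa3: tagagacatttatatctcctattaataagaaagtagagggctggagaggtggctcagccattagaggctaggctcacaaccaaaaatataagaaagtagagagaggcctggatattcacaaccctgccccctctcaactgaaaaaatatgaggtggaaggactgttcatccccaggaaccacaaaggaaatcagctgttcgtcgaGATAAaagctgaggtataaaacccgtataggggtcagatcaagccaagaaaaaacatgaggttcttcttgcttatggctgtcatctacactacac
Prss34: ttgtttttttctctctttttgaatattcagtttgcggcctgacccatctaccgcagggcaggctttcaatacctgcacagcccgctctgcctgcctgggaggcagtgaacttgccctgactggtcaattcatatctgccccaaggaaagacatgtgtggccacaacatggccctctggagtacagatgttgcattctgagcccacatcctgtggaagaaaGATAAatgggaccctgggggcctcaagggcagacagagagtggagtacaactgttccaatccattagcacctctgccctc
Fcer1a: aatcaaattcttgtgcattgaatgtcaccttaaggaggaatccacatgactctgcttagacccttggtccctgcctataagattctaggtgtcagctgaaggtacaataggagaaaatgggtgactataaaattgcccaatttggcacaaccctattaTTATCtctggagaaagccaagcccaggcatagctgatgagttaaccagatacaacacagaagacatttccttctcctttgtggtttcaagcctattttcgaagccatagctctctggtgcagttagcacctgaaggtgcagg
Mcpt8: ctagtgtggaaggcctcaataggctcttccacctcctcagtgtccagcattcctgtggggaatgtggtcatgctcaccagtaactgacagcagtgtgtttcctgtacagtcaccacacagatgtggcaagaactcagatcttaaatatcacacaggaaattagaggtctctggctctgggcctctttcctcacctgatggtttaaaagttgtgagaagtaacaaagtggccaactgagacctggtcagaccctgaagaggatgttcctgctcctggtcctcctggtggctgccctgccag

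GATAA lay in the windows of Cpa3, Prss34 and Fcer1a, starting 45, 30 and 92 bases before the start site, with the Fcer1a match on the opposite strand as TTATC. Its letters are not in the windows of Mcpt8, Gata2, Kit, Epx or Hdc, and so are missing from some genes that fell in the table at 24 h. Over both strands, 4 of the 9 member genes with a window held GATAA, the other being Ms4a2, against 25.4% of 32851 windows in the table. CATGTG, the letters of 1 E-box, was in the windows of Prss34 and Fcer1a, 2 of 9 genes, against 14.2% of all windows. CACGTG was in 0 of 9 against 7.15%. CACGTG is its own reverse complement. A match describes the sequence and nothing else.

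Cpa3 signals were 0.469, 0.545 and 0.537 at 0 h, 1.01, 0.537 and 0.504 at 6 h, 0.809, 0.790 and 0.694 at 12 h, and 0.526, 0.531 and 0.523 at 24 h. The first sample at 6 h stood apart from the others of its group, and those lay within the range at 0 h. The arrays at 12 h were all above 0 h (log2 0.56, SE 0.217, adjusted p = 0.0372), short of 2-fold. Table ratios of Cpa3 were 1, 0.931 and 1.04 at 0 h, 0.664, 0.706 and 0.739 at 6 h, 0.583, 0.586 and 0.502 at 12 h, and 0.181, 0.207 and 0.218 at 24 h. The fall at 24 h was 4.92-fold (log2 -2.30, SE 0.088, adjusted p = 4.07e-09).

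The call of Cpa3 on the scanner scale depended on whether the slide was in the fit. The array of 6 h replicate 1, the highest of the 12 for Cpa3, lay on slide 1 with the 0 h arrays, whereas the other arrays at 6 h lay on slide 2. With the slide as a block, the log2 change of Cpa3 was 0.96 at 6 h, 1.58 at 12 h (adjusted p = 9.86e-06) and 1.18 at 24 h (adjusted p = 0.0367), where 23 of all genes were called. That block links slide 1 to the others through 6 h replicate 1 alone. It links slide 3, which held every array at 24 h, to the others through 12 h replicate 3 alone. A fit without 6 h replicate 1 and without the block gave 0.01 at 6 h. At 12 h it gave 0.56, as in the main fit, since no array at 0 or 12 h was left out. Such a fit cannot show what 6 h replicate 1 did to the values with the block. Without that array slide 1 held the 0 h arrays alone, so slide and group could not be told apart.

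Mcpt8 signals stayed between 0.505 and 0.631 on all 12 arrays, and the exposed groups overlapped 0 h. Its log2 changes were 0.09, 0.09 and -0.11 at 6, 12 and 24 h. The table gave 1.10, 0.944 and 1 at 0 h, 1.29, 1.32 and 1.34 at 6 h, 0.911, 1.10 and 0.850 at 12 h, and 0.355, 0.413 and 0.378 at 24 h. It fell 2.65-fold at 24 h (log2 -1.41, SE 0.099, adjusted p = 4.84e-07), after ratios at 6 h that lay above all at 0 h without reaching 2-fold.

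Prss34 signals were 1.59, 1.57 and 1.53 at 0 h, 1.37, 1.25 and 1.39 at 6 h, 1.77, 1.65 and 1.84 at 12 h, and 1.55, 1.55 and 1.59 at 24 h. The arrays at 6 h lay below and those at 12 h above 0 h, with log2 changes of -0.23 (adjusted p = 0.00312) and 0.17 (adjusted p = 0.0157), both far from 2-fold. Its table ratios were 1.01, 0.941 and 1 at 0 h, 0.769, 0.786 and 0.791 at 6 h, 0.653, 0.664 and 0.556 at 12 h, and 0.321, 0.336 and 0.308 at 24 h. The fall at 24 h was 3.05-fold (log2 -1.61, SE 0.071, adjusted p = 1.17e-08). Across the 12 columns of the table Prss34 and Cpa3 correlated at r = 0.994, and across the 12 arrays at 0.195; the columns fall into 4 times, so r mostly follows the group means.

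Of 14 other mast cell proteases and granule genes, 6 were measured, 6 were below background and 2 were not analysed here. On the scanner scale 1 rose and 1 fell at 6 h, and 1 rose and 0 fell at 12 h. The table had 2 higher and 2 lower at 6 h, 0 higher and 3 lower at 12 h, and 1 higher and 2 lower at 24 h. Ndst2, which sulfates the heparin of mast cell granules, fell in both sources at 6 h, 2.24-fold on the scanner scale and 2.44-fold in the table. Gzmb, a cytotoxic serine protease, was not well above background at 0 h and was at least 2.76-fold higher on the scanner scale at 12 h (adjusted p = 4.15e-08), where it was not called in the table. The 1 rise counted on the scanner scale at 6 h was also Gzmb. It was well above background on 1 of the 3 arrays there, and its bound was 1.33-fold, under 2-fold. At 24 h Gzmb was called as higher on the scanner scale, but it was not well above background on any array at 0 or 24 h, so no fold is given.

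The IgE receptor was seen through Fcer1a, since Ms4a2, its β chain, was well above background on 1 of 12 arrays, 12 h replicate 3. Fcer1a signals were 0.192, 0.185 and 0.193 at 0 h, 0.205, 0.209 and 0.223 at 6 h, 0.228, 0.198 and 0.280 at 12 h, and 0.239, 0.248 and 0.215 at 24 h. All exposed arrays lay above those at 0 h, but by log2 0.16, 0.29 and 0.30 at 6, 12 and 24 h, with adjusted p = 0.221, 0.0332 and 0.168. In the table its ratios were 0.972, 1.05 and 1 at 0 h, 0.796, 0.825 and 0.820 at 6 h, 0.540, 0.744 and 0.665 at 12 h, and 0.504, 0.558 and 0.343 at 24 h. The fall at 24 h was 2.20-fold (log2 -1.13, SE 0.167, adjusted p = 0.000139), and it was -0.92 without 24 h replicate 3 and just short of -1 (adjusted p = 0.0306) with quantile normalization of the table, both under 2-fold. Table ratios of Ms4a2 ran from 0.276 to 0.451 at 24 h and from 0.756 to 1.27 at 0 h, on a probe that the scanner did not detect at either time, and are not tested.

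**Figure D4:**
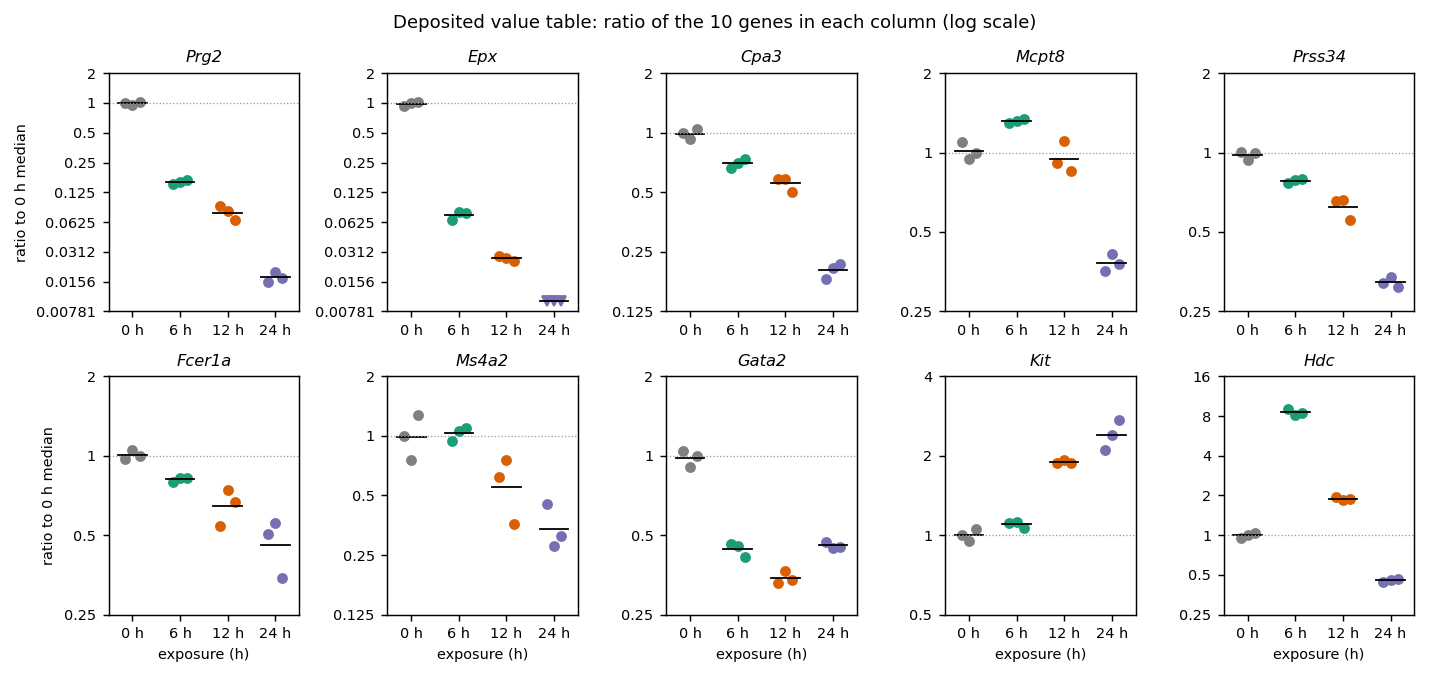
Ratio of each of the 10 genes in each column of the deposited value table, relative to the median of the 3 columns at 0 h (vertical axis, log scale, different range in each panel), by hours of exposure. Points are samples, bars group means on the log scale (n = 3), and triangles mark values at the lowest ratio of 0.01; 8 of the 9 measured genes are lower at 24 h than at 0 h, and Kit is higher.

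Among 16 other receptors of basophils and mast cells, 12 were measured. The scanner values showed that 0 rose and 6 fell at 6 h, 1 rose and 6 fell at 12 h, and 0 were called at 24 h or had an unadjusted p under 0.05 there, with medians of -0.81, -0.72 and 0.02. The table had 1 higher and 5 lower at 6 h, 2 higher and 6 lower at 12 h, and 3 higher and 6 lower at 24 h, with medians of -0.09, -0.84 and -1.30. Il1rl1, the receptor for interleukin-33, fell 9.78-fold at 6 h and 11.9-fold at 12 h on the scanner scale and 17.5-fold and 50.4-fold in the table. Il18r1, a chain of the interleukin-18 receptor, was not well above background on any array at 12 h and was at least 20.4-fold lower there on the scanner scale (adjusted p = 1.75e-06), and it was called lower in the table too. Cd34, a sialomucin of progenitors and mast cells, fell 7.23-fold at 6 h and 5.90-fold at 12 h on the scanner scale, and 9.13-fold and 18.6-fold in the table. Fcer1g, the signalling chain that the IgE receptor shares with other Fc receptors, rose at 12 h in both, 2.43-fold and 2.28-fold.

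Gata2, the transcription factor, had a pair of probes. Signals of the probe that stands for the gene were 2.57, 2.68 and 2.55 at 0 h, 2.72, 2.43 and 2.64 at 6 h, 1.88, 1.98 and 1.75 at 12 h, and 2.68, 2.60 and 2.76 at 24 h. Only the arrays at 12 h lay apart from 0 h, by log2 -0.48 (SE 0.058, adjusted p = 2.88e-05), short of 2-fold. In the table the ratios were 1.04, 0.910 and 1 at 0 h, 0.463, 0.456 and 0.414 at 6 h, 0.329, 0.365 and 0.337 at 12 h, and 0.472, 0.448 and 0.453 at 24 h. Gata2 fell 2.21-fold at 6 h, 2.86-fold at 12 h and 2.15-fold at 24 h (adjusted p = 1.3e-07, 1.36e-08 and 1.75e-07).

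The other probe of Gata2 gave the same calls in the table, with log2 changes of -1.04, -1.59 and -1.22. On the scanner scale the probes disagreed at 6 h, at 0.30 for the other probe and -0.01 for the probe used. At 12 h both were below 0 h, at -0.16 and -0.48. The falls of Gata2 at 6 and 24 h in the table were close to the threshold. With quantile normalization they were -0.89 and -0.75, and with the slide as a block the fall at 24 h was -0.97.

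Kit, the receptor for stem cell factor that mast cells keep throughout life, was measured by 10 spots of 1 probe, whose SD on an array ran from 0.059 to 0.211 on the log2 scale. Kit signals were 0.290, 0.277 and 0.259 at 0 h, 0.365, 0.360 and 0.391 at 6 h, 0.765, 0.752 and 0.702 at 12 h, and 0.309, 0.331 and 0.328 at 24 h. All exposed arrays lay above those at 0 h. At 12 h Kit rose 2.69-fold (log2 1.43, SE 0.058, adjusted p = 5.06e-09), and at 24 h it fell 2.29-fold relative to 12 h. At 6 and 24 h against 0 h its log2 changes were 0.43 (adjusted p = 6.38e-05) and 0.23 (adjusted p = 0.0606). The table gave 1, 0.953 and 1.06 at 0 h, 1.11, 1.12 and 1.07 at 6 h, 1.88, 1.93 and 1.88 at 12 h, and 2.10, 2.41 and 2.73 at 24 h. Kit was the 1 member whose table ratio was highest at 24 h, with a rise of 2.39-fold (log2 1.26, SE 0.085, adjusted p = 3.54e-07). With quantile normalization of the table that rise was 0.95 on the log2 scale, under 2-fold. At 12 h, where the scanner scale made the call, the table gave 1.89-fold (log2 0.92).

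Of 16 other lineage transcription factors, 15 were measured. By the scanner values 6 rose and 2 fell at 6 h, 7 rose and 2 fell at 12 h, and 0 were called at 24 h, with 3 at an unadjusted p under 0.05. The table had 5 higher and 3 lower at both 6 and 12 h, and 3 higher and 1 lower at 24 h. Stat5a, which carries signals of GM-CSF and related cytokines, rose 8.12-fold at 6 h and 8.59-fold at 12 h on the scanner scale, and 6.09-fold and 4.33-fold in the table. Gfi1, a transcriptional repressor that granulocytes need to develop, rose 11.3-fold and 18.5-fold on the scanner scale, and 5.46-fold and 2.10-fold in the table. Lmo2, a bridging protein of GATA factor complexes, fell 3.21-fold and 2.68-fold on the scanner scale and 2.03-fold and 2.05-fold in the table. Irf8, a factor of dendritic cell and monocyte development, rose at 12 h 4.46-fold on the scanner scale and 3.33-fold in the table. Gata3 rose 4.18-fold at 6 h on the scanner scale and was at 1.51-fold in the table. Cebpa, a factor that granulocytes need to form, fell 2.22-fold and 3.85-fold at 6 and 12 h on the scanner scale and was not called in the table. Its table log2 changes ran the other way, at 0.24 and 0.27 (limma adjusted p = 0.00754 and 0.0036), short of 2-fold.

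Genes of IgE receptor and Kit signalling moved both ways: of 16, 15 were measured, of which 2 rose and 5 fell at 6 h and 3 rose and 4 fell at 12 h on the scanner scale. The table gave 2 rises and 3 falls at 6 h and 3 rises and 3 falls at both 12 and 24 h, where 0 were called by the scanner values and 3 had an unadjusted p under 0.05. Syk, the kinase that docks on the receptor, rose 2.19-fold at 6 h and 2.17-fold at 12 h on the scanner scale, and 2.86-fold and 3.03-fold in the table. Rasgrp4, a guanine nucleotide exchange factor of mast cells, fell at 12 h, by 3.95-fold on the scanner scale and 8.26-fold in the table. Lat2, an adaptor, was called in opposite directions at 12 h, 6.03-fold lower on the scanner scale and 3.08-fold higher in the table.

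Hdc, which makes histamine from histidine, changed more than any other member on the scanner scale. Its signals were 3.49, 3.59 and 3.76 at 0 h, 42.2, 38.9 and 42.5 at 6 h, 109.4, 105.2 and 119.5 at 12 h, and 3.39, 3.53 and 3.57 at 24 h. The arrays at 6 and 12 h lay far above those at 0 h, and the arrays at 24 h overlapped them. Hdc rose 11.4-fold at 6 h (log2 3.51, SE 0.058, adjusted p = 1.85e-11) and 30.8-fold at 12 h (log2 4.94, adjusted p = 1.72e-12). At 24 h its log2 change was -0.05 against 0 h, and it was 31.8-fold lower than at 12 h.

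In the table the rise of Hdc at 6 h was of similar size, at ratios of 9.11, 8.14 and 8.46 against 0.950, 1 and 1.04 at 0 h, a change of 8.60-fold (SE 0.056 on the log2 scale, adjusted p = 3.02e-11). Its ratios were 1.94, 1.85 and 1.89 at 12 h and 0.442, 0.456 and 0.468 at 24 h. The value at 12 h, 1.90-fold, was short of the call, and at 24 h Hdc fell 2.19-fold (log2 -1.13, adjusted p = 3.07e-08). With the slide as a block, these log2 changes in the table were 1.06 at 12 h, past 2-fold, and -0.99 at 24 h, short of it; with quantile normalization of the table the change at 24 h was -0.74. Within slide 1 the scanner change at 6 h was 3.55, with 6 h replicate 1 as the only 6 h array. Within slide 2 the change at 12 h against 6 h was 1.40. Within slide 3 the change at 24 h against 12 h was -5.09, with 12 h replicate 3 as the only 12 h array. Among the comparisons with 0 h, Hdc at 6 h was the 1 call that a member had in the same direction in both sources.

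On the scanner scale Kit and Hdc were called lower at 24 h than at 12 h, where 31% of all genes were called (18.2% higher and 12.9% lower). Prg2 and Epx also lay below their 12 h arrays on every 24 h array, by -0.92 and -0.96 on the log2 scale (limma adjusted p = 1.73e-09 and 5.04e-09), short of 2-fold. Epx was past 2-fold, at -1.01, with the slide as a block. The value within slide 3 is the same estimate, since all 24 h arrays lay on that slide. It rests on 12 h replicate 3, the only 12 h array there. The table called Cpa3, Mcpt8, Prg2, Epx and Hdc lower in the same comparison, where 4.57% of all genes were called (1.4% higher and 3.17% lower). Kit on the scanner scale was 1.99-fold higher at 12 h than at 6 h, just short of the call, and within slide 2 the log2 change was 1.02.

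Of 14 other genes of histamine and lipid mediators, 11 were measured, and on the scanner scale 1 rose and 5 fell at 6 h and 1 rose and 6 fell at 12 h, with median log2 changes of -0.93 and -1.13. The table had 3 higher and 4 lower at 6 h, and 4 higher and 2 lower at both 12 and 24 h. At 24 h the scanner values gave 0 calls, with 2 at an unadjusted p under 0.05 and a median of 0.05. Ptgs2, the inducible cyclooxygenase, was not well above background at 0 h and was at least 991-fold higher at 6 h and at least 708-fold higher at 12 h (adjusted p = 1.34e-10 and 1.29e-10) on the scanner scale. It was called higher in the table at both times, but against an undetected level, so no fold is given. Alox5, the lipoxygenase that starts leukotriene synthesis, fell at 6 h 2.17-fold on the scanner scale and 2.79-fold in the table. Hrh1, a histamine receptor, fell 3.43-fold and 2.31-fold at 6 h. Ptgs1, the constitutive cyclooxygenase, fell 4.92-fold and 2.65-fold at 12 h.

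Of 11 cytokines that mast cells and basophils make or respond to, 9 were measured, and on the scanner scale 9 rose at 6 h and 8 at 12 h. The table had 6 higher at 6 h, 4 at 12 h and 3 at 24 h, where the scanner values gave 0 calls and 4 at an unadjusted p under 0.05. Il6 rose 653-fold at 6 h and 727-fold at 12 h on the scanner scale, and 105-fold and 76.1-fold in the table. Csf2, which encodes GM-CSF, was not well above background at 0 h and was at least 165-fold higher at 6 h on the scanner scale (adjusted p = 2.57e-13), and it was called higher there in the table. Il33, the ligand of Il1rl1, was at least 26.5-fold and 139-fold higher at 6 and 12 h on the scanner scale (adjusted p = 1.05e-06 and 6.7e-08), and was not called in the table (adjusted p = 0.353 and 0.468).

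The difference between the sources was itself tested for each member, after the data were seen. The limma fit was made to the scanner value minus the table value of each of the 12 samples, at the same thresholds. At 6 h it passed for Gata2, Prg2 and Epx, where 14.9% of all genes did. At 12 h it passed for Cpa3, Gata2, Prg2, Epx and Hdc, where 29.5% did. At 24 h it passed for all 9 measured genes, where 27.7% did. The scanner change exceeded the table change at 24 h by between 1.08 for Hdc and at least 6.76 for Epx on the log2 scale, and Kit was the exception at -1.03. The value for Epx is a bound, since all its table ratios at 24 h were at the lowest ratio. For Prg2 the difference was 2.50, 4.78 and 6.03 at 6, 12 and 24 h.

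Markers of other cells were measured on the same arrays. On the scanner scale the summed signal of 10 neutrophil and precursor genes ran from 371.6 to 380.8 at 24 h and from 366.1 to 376.9 at 0 h, and 0 of the 10 were called. The table called 9 of the 10 lower at 24 h, and their median ratio ran from 0.238 to 0.255 at 24 h and from 0.999 to 1.05 at 0 h. The table's median ratio of the 10 dendritic cell markers was 0.788 to 0.850 at 24 h and 0.972 to 1.05 at 0 h, with 2 called higher and 2 lower. Of 6 macrophage markers 3 were called lower at 24 h in the table and 0 on the scanner scale. At 12 h the summed scanner signal of the dendritic cell markers was 640.6 to 682.8, against 475.2 to 497.2 at 0 h, with 3 of the 10 called higher and 1 lower. That of the macrophage markers was 269.0 to 296.8 at 12 h and 156.5 to 157.3 at 0 h, although 1 of the 6 was called higher and 3 lower, with a median log2 change of -0.26. That of the 5 measured T, B and NK cell markers was 0.782 to 0.878 at 12 h and 0.655 to 0.710 at 0 h, although 0 were called higher and 2 lower. The part of these markers in the members' values was not tested.

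The genes whose scanner course over the 12 arrays was most like that of a member were taken among 11380 named genes, by Pearson's r, which mainly follows the 4 group means. Prg2 and Epx were each other's nearest, at r = 0.998, and at 0.982 in the table. Fbxw17 came next for both, at 0.996 for Prg2 and 0.995 for Epx. Hdc was nearest to Cd72 and Timp1 (r = 1.00 and 0.999), and Kit to Frmd4b and Bdh1 (0.995 and 0.994), of which Frmd4b ran the other way in the table (r = -0.42). For Gata2 they were Bola3 and Herpud1 (both 0.987), whose table values ran the other way (r = -0.41 and -0.57). Rin3 was among the nearest genes of Prss34 (0.976). Mcpt8 was nearest to Rbbp4 and Shmt1 (0.927 and 0.914), Fcer1a to Sebox and Klk7 (both 0.926) and Cpa3 to Acyp2 and Rdx (0.902 and 0.899), with Acyp2 at r = -0.48 in the table.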

How the data were processed

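RNA from 12 samples (500 ng each) was labelled with Cy3 and hybridised to Agilent mouse arrays of 1 colour. The intensity of each spot, per the file headers, is the processed signal of Agilent Feature Extraction 9.1.3.1, after background subtraction by that software. In the authors' deposited value table each probe has a linear ratio to its 0 h median, and no ratio is under 0.01. How its columns were scaled is not stated in the labels or headers. Between 50.9% and 59.6% of an array's spots were well above background. Precision is limited by the 3 arrays of each group.

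From the deposited intensities, outlier spots were left out, log2 was taken and the array's 75th percentile subtracted. Spots of a probe were averaged. Probes well above background on every array of at least 1 group were kept, the brightest for each gene, which left 18404 genes. Names came from RefSeq accessions. Group means were fitted with limma 3.58.1 in R 4.3.3 over all 12 samples, with 8 residual degrees of freedom, to log2 signals and to the log2 of the deposited ratios, with Benjamini-Hochberg adjustment over all genes. Tested on simulated data for 6 h against 0 h, this recovered 89% of changes of 1.5 and 97% of changes of 3 on the log2 scale. The simulation changed 100 genes by each size, with independent normal noise and no slide effect. Its rates may therefore not carry over to these arrays. Where a probe was not well above background in a group, the fold is a bound against the lowest detected signal. Members and gene lists were chosen with earlier results of these data known. From each list the 3 largest rises and 3 largest falls called on the scanner scale could be named, and for each member the 2 genes of highest r. Among these, 1 gene is not reported here. Alternatives covered background correction (normexp, on median signals), scaling, filters, slide and replicate blocks and left-out samples.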

Additional observations from a re-analysis of the deposited data

How the results depend on the processing

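No called change of a member reversed its direction under any setting. Some uncalled changes did. Among them, with the slide as a block, the scanner log2 changes were -0.17 for Fcer1a at 24 h against 0 h (0.30 without the block), -0.02 for Fcer1a at 12 h against 6 h (0.14) and 0.06 for Gata2 at 6 h against 0 h (-0.01). With normexp background correction, 1 member (Hdc) was called lower at 24 h than at 12 h on the scanner scale, instead of 2. With quantile normalization, and also with the 75th percentile over detected probes, 2 members (Kit and Hdc) instead of 4 were called at 12 h against 0 h on the scanner scale. With the slide as a block, 1 member (Cpa3) instead of 0 was called at 24 h against 0 h on the scanner scale, 5 instead of 4 (with Cpa3) at 12 h against 0 h, 4 instead of 3 (with Kit) at 12 h against 6 h and 3 instead of 2 (with Epx) at 24 h against 12 h. Quantile normalization of the value table left 5 members called at 24 h against 0 h (without Gata2, Fcer1a, Kit and Hdc), 1 at 12 h against 6 h and 3 at 24 h against 12 h. Leaving out each sample in turn, the scanner scale called 1, 4 and 0 members at 6, 12 and 24 h against 0 h, 3 to 4 at 12 h against 6 h and 2 at 24 h against 12 h; the table called 4, 3 and 8 to 9 against 0 h, 2 to 3 at 12 h against 6 h and 5 to 6 at 24 h against 12 h. Samples with the same replicate number deviated together little (r from -0.09 to 0.16 on the scanner scale and -0.08 to 0.23 in the table, with 2 and 1 of 18 pairs over 0.1). With so few arrays in a group, these values cannot settle whether the numbers pair the samples. With the replicate number as a block, the members called on the scanner scale were again 1, 4 and 0 at 6, 12 and 24 h against 0 h, and no member count changed in either source; over all genes the block left 86 calls at 24 h against 0 h, against 154 without it. Over all genes on the scanner scale, normexp left 2578, 3066 and 8 calls at 6, 12 and 24 h against 0 h, against 4800, 5632 and 154, and 577 at 12 h against 6 h and 3158 at 24 h against 12 h, against 1286 and 5713. The 154 calls at 24 h became 96 with no filter on dim probes, 47 with probes detected on all arrays, 23 with the slide as a block, and 24 to 292 with 1 sample left out; the 1286 became 788 with probes detected on all arrays. Quantile normalization of the table left 3287 and 3165 calls at 12 and 24 h against 0 h, against 5114 and 4832, and 396 and 270 at 12 h against 6 h and 24 h against 12 h, against 1067 and 841. The cause of these changes was not tested. Signal over background kept Ms4a2 out of the reported tests.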
